A study of Homo sapiens with 12 samples.

Results

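Chemokine genes other than the ligands of the receptor CXCR3 were followed across both hairpin lines and both treatments. They were the 10 genes CXCL16, CX3CL1, CXCL8, CXCL14, CXCL1, CXCL2, CXCL12, CCL2, CCL5 and CCL20, picked by symbol, and all 10 were found among the 27685 entries of the table. The libraries came from messenger RNA of U251, a long-established human glioblastoma cell line, at passages 14 to 18. The shCTRL line expressed a control short hairpin RNA, and the shINCA1 line expressed a hairpin that targets the lncRNA INCA1. Each line received the control treatment (called untreated here) or interferon gamma (IFNγ) for 24 h. The 4 groups therefore were untreated shCTRL, IFNγ-treated shCTRL, untreated shINCA1 and IFNγ-treated shINCA1 cells, with 3 libraries in each. All cells carried a hairpin, and as far as the labels tell each hairpin was represented by 1 line.

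Chemokines are small secreted proteins that bind G protein-coupled receptors on leukocytes and steer their movement. Most are released at once, whereas CXCL16 and CX3CL1 are made as membrane proteins whose chemokine domain stands on a mucin stalk and can be cut off by the proteases ADAM10 and ADAM17. CXCL8, CXCL1 and CXCL2 carry the ELR motif and attract neutrophils through CXCR1 and CXCR2, and their genes are textbook targets of NF-κB. CCL2 draws monocytes through CCR2, CCL5 attracts T cells and monocytes, and CCL20 is the ligand of CCR6. CXCL12, the ligand of CXCR4 and of the scavenging receptor ACKR3, and CXCL14 are counted among the homeostatic chemokines. In glioblastoma, chemokines are known for bringing monocytes and microglia into the tumour.

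Upstream sequence was available from the RefSeq promoter table (GRCh38.p14) for 6 of the 10 genes, CXCL8, CXCL14, CXCL1, CXCL2, CXCL12 and CCL20. Those of 4 genes are shown because the results turn on them: CXCL8 and CXCL14 had the highest ratios between the lines, and CXCL2 was detected while its relative CXCL1 was listed at 0. Each line is the 250 bases before the annotated start, 5′ to 3′ in the direction of the gene. Capitals mark matches, on either strand, to the κB-like letters GGNNNTTCC or the AP-1 letters TGANTCA.
CXCL8, chr4:73740319-73740568, plus strand: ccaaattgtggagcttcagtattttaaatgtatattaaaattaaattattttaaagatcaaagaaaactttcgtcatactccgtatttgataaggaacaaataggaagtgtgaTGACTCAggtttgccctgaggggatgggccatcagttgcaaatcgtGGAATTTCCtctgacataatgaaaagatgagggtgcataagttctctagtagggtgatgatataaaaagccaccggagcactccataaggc
CXCL14, chr5:135578992-135579241, minus strand: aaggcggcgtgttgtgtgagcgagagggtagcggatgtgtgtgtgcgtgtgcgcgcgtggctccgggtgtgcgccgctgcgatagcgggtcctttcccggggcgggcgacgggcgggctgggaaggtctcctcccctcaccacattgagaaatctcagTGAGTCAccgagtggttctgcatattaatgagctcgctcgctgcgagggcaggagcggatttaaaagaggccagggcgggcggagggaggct
CXCL1, chr4:73869143-73869392, plus strand: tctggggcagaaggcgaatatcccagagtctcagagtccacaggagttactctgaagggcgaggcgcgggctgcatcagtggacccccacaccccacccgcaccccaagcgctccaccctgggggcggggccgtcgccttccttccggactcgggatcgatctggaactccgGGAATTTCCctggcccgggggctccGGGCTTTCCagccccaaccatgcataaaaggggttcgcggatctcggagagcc
CXCL2, chr4:74099196-74099445, minus strand: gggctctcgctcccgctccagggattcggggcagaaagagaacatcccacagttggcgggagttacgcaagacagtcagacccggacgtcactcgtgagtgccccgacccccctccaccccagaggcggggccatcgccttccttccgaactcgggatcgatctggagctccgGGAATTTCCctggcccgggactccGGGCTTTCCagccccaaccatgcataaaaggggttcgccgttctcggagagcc

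The CXCL8 window held an AP-1 match from 137 to 131 bases before the start and a κB-like match from 91 to 83 bases before it. CXCL14 held 1 AP-1 match, from 92 to 86 bases before the start, and no κB-like match. CXCL1 and CXCL2 each held the pair GGAATTTCC and GGGCTTTCC, the second from 53 to 45 bases before the start in both genes, and 178 of the 250 bases were identical in a gapped alignment (71.2%). A κB-like match was present in 4 of the 6 chemokine windows and in 17.1% of 27305 windows of all genes, and an AP-1 match in 2 of 6 and in 6.6%. The letters of the interferon-stimulated response element (GAAA, any 2 bases, then GAAA, in 3.07% of all windows) were in none of the 6 chemokine windows. No match overlapped another. A match is a description of letters, not of binding.

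**Figure D1:**
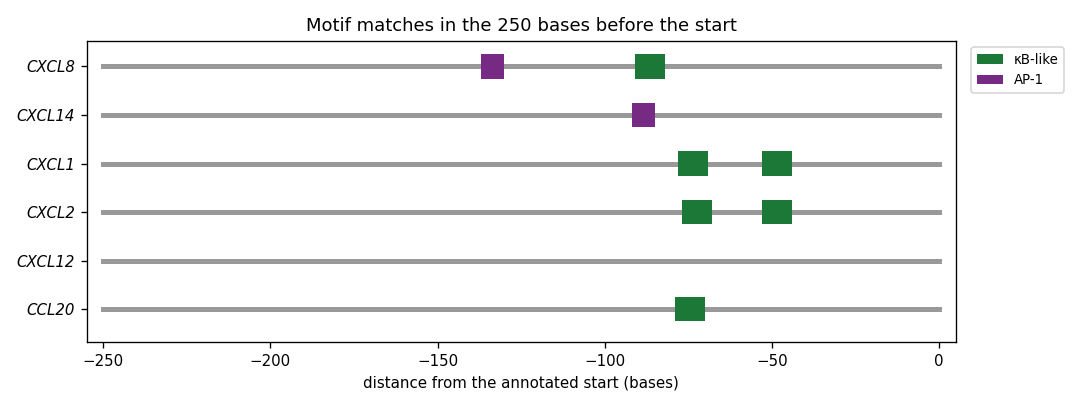
Positions of motif matches in the 250 bases before the annotated start of 6 chemokine genes; the x axis is the distance from the start in bases, and boxes are κB-like (green) and AP-1 (purple) matches. CXCL1 and CXCL2 share their pair of κB-like matches, CXCL14 holds an AP-1 match only, and CXCL12 holds none.

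Levels are counts per 1000000 counts (CPM) after scaling by TMM, a correction for library composition. Library totals were 46525032 to 66242859 estimated counts, and 16724 to 17216 genes were above 0. The labels do not state whether the libraries of a group were grown apart, so each p-value rests on a spread between libraries that may be technical. The INCA1 entry of the table is a protein-coding gene of the same name and cannot check the hairpin (mean 0.124 to 0.232 CPM). The treatment labels were checked with IRF1, an interferon-induced transcription factor gene, which rose from 15.1 to 936 CPM in shCTRL and from 11.7 to 628 CPM in shINCA1 cells. Of 10 leukocyte markers 6 were at 0 in each group, among them CD3E, AIF1, MS4A1, NKG7 and TYROBP throughout, while CD68 (9.46 to 13.7 CPM by group), CSF1R (0.593 to 1.90) and CD14 (0.347 to 0.578) were detected. The 7 glioblastoma and astroglial markers summed to 3380 to 3523 CPM in shCTRL and 2864 to 2975 CPM in shINCA1 libraries. VIM, CD44, SOX2, EGFR and NES were well detected, with NES at 137 CPM in untreated shCTRL and 33.5 CPM in untreated shINCA1 cells, and GFAP and S100B were at or below 2.46 CPM in every group. In bulk RNA, fewer cells of a type and less RNA per cell cannot be told apart.

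Of the 10 chemokine genes, 7 passed the filter on low counts and 3 (CXCL1, CXCL12 and CCL5) were listed at 0 in all 12 libraries. In shCTRL cells IFNγ raised 3 of the 7 (CXCL16, CX3CL1 and CCL2), where 9.72% of the 15769 genes tested were raised. It lowered 1, CXCL8, where 7.51% of all genes were lowered, so 4 of the 7 were called against 17.2% of all genes in either direction. In shINCA1 cells the same 3 genes rose, where 6.13% of all genes were raised, and none of the 7 was lowered, where 2.95% were (9.08% in either direction). With upper-quartile scaling all genes split into 1201 raised and 1970 lowered in shCTRL and 815 and 733 in shINCA1 cells, against 1532 and 1184 and 967 and 465 with TMM, and the calls of the 7 chemokines did not change. All calls are from edgeR's quasi-likelihood test at a Benjamini-Hochberg adjusted p of 0.05 over all genes tested.

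Without IFNγ, 4 of the 7 were higher in shINCA1 than in shCTRL cells (CXCL14, CXCL8, CXCL16 and CX3CL1), where 27.4% of all genes were higher. None was lower, where 29.5% of all genes were. With IFNγ, CXCL14, CXCL8 and CXCL16 were higher, where 28.7% of all genes were, and CX3CL1 and CCL2 were lower, where 30.2% were. The lines differed in 56.9% of all genes tested when untreated and in 58.9% with IFNγ, so these shares of the 7 (4 and 5) are near or little above the background. The median log2 change over the 7 tested chemokines was -0.25 for IFNγ in shCTRL (all genes -0.01), -0.27 for IFNγ in shINCA1 (all genes 0), 0.50 between untreated lines (all genes -0.01) and 0.02 between treated lines (all genes below 0.01 in size). Comparisons that use the same group share its libraries.

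**Figure D2:**
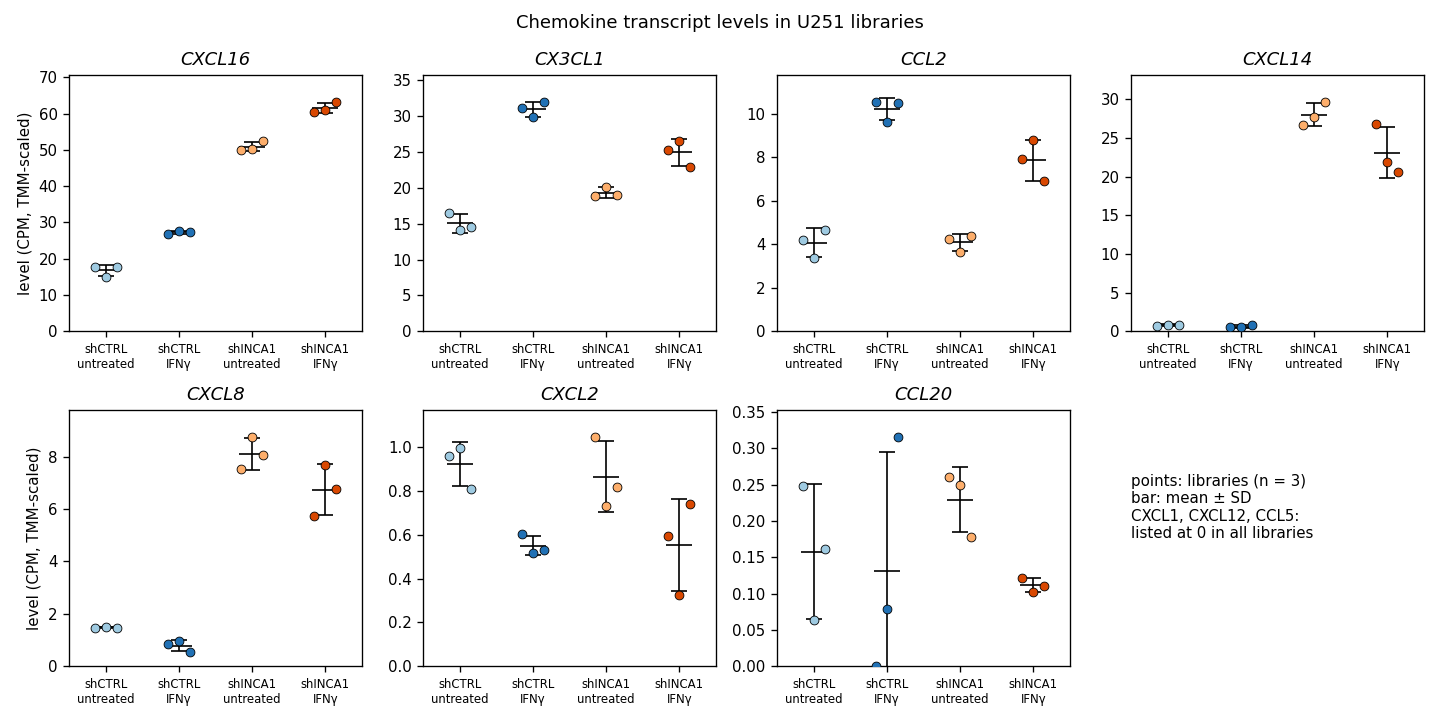
Levels of the 7 detected chemokine genes in CPM (y axes, linear from 0) in the 4 groups; points are libraries and bars are the mean ± SD of 3. CXCL14 and CXCL8 are set apart by line, whereas CCL2 and CX3CL1 are set apart by IFNγ in both lines.

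CXCL16, the membrane-anchored ligand of CXCR6, was high in the shINCA1 line and rose with IFNγ in both lines. Its libraries held 17.7, 15.0 and 17.7 CPM in untreated shCTRL cells and 26.7, 27.7 and 27.4 CPM after IFNγ. In shINCA1 cells they held 49.9, 50.4 and 52.4 CPM untreated and 60.5, 61.0 and 63.1 CPM after IFNγ. The 4 groups did not overlap, and even treated shCTRL cells stayed below untreated shINCA1 cells. IFNγ raised CXCL16 1.62-fold in shCTRL cells (log2 0.70 ± 0.06 SE, adjusted p = 3.01e-06) and 1.21-fold in shINCA1 cells (log2 0.27 ± 0.06, adjusted p = 0.00770). The lines differed by 1.60 ± 0.06 untreated (adjusted p = 6.35e-10), a ratio of 3.03, and by 1.17 ± 0.06 with IFNγ (adjusted p = 6.58e-09), a ratio of 2.26.

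CX3CL1, or fractalkine, the other membrane-anchored chemokine and the ligand of the microglial receptor CX3CR1, changed its order between the lines with treatment. Untreated shCTRL libraries held 16.5, 14.0 and 14.5 CPM, and untreated shINCA1 libraries 18.8, 20.1 and 19.0 CPM. After IFNγ the shCTRL libraries held 31.1, 29.8 and 31.9 CPM and the shINCA1 libraries 25.3, 26.5 and 22.9 CPM. The shINCA1 line was thus the higher one before treatment and the lower one after it, with no overlap either time. The log2 difference between lines was 0.36 ± 0.07 untreated (adjusted p = 9.56e-04) and -0.31 ± 0.07 with IFNγ (adjusted p = 0.00216). IFNγ raised CX3CL1 2.05-fold in shCTRL (log2 1.04 ± 0.07, adjusted p = 5.49e-07) and 1.29-fold in shINCA1 cells (0.37 ± 0.07, adjusted p = 0.00533).

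On the log2 scale, the responses of both membrane-anchored chemokines to IFNγ were smaller in shINCA1 than in shCTRL cells. In CPM, mean CXCL16 went from 16.8 to 27.3 in shCTRL and from 50.9 to 61.5 in shINCA1 cells. Its rise in CPM was thus similar in both lines, from a higher starting level in shINCA1 cells. The difference of responses was -0.67 ± 0.10 on the log2 scale for CX3CL1 (edgeR adjusted p = 0.00461) and -0.42 ± 0.08 for CXCL16 (adjusted p = 0.0206). These were 2 of the 7 tested chemokines, where 1.1% of all genes had a lower response, and none had a higher one, where 0.615% did (1.71% in either direction). For CX3CL1 the call held without any 1 library (adjusted p 0.00267 to 0.0182). For CXCL16 it was lost without shCTRL IFNγ library 2 or 3, untreated shINCA1 library 3 or shINCA1 IFNγ library 1 or 2 (adjusted p 0.0709, 0.0537, 0.0705, 0.0597 and 0.0666).

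CCL2, the monocyte attractant, responded to IFNγ in both lines from nearly equal starting levels. Untreated libraries held 4.18, 3.35 and 4.68 CPM in shCTRL and 4.23, 3.66 and 4.38 CPM in shINCA1 cells, and these ranges overlapped. Treated libraries held 10.5, 9.61 and 10.5 CPM in shCTRL and 7.91, 8.79 and 6.91 CPM in shINCA1 cells, with every treated library above every untreated one. The response was 2.50-fold in shCTRL (log2 1.32 ± 0.13, adjusted p = 1.11e-05) and 1.92-fold in shINCA1 cells (0.94 ± 0.13, adjusted p = 3.40e-04). The lines did not pass the test untreated (0.00 ± 0.13, 95% interval -0.28 to 0.29, adjusted p = 0.981). With IFNγ CCL2 was lower in shINCA1 cells by a log2 difference of -0.38 ± 0.12 (adjusted p = 0.0191). That call was lost without shCTRL IFNγ library 1 or 3 (adjusted p = 0.0568 and 0.0550) or shINCA1 IFNγ library 3 (adjusted p = 0.0720). The difference of responses did not pass the test (-0.38, 95% interval -0.77 to 0.01, adjusted p = 0.451).

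CXCL8, a strong neutrophil attractant, was low in shCTRL cells and fell further with IFNγ, and was several-fold higher in the shINCA1 line. Untreated shCTRL libraries held 1.46, 1.51 and 1.47 CPM, and IFNγ-treated ones 0.830, 0.956 and 0.548 CPM. The shINCA1 libraries held 7.52, 8.75 and 8.06 CPM untreated and 5.73, 7.69 and 6.78 CPM after IFNγ. The treated and untreated libraries were apart in shCTRL cells and overlapped in shINCA1 cells, and both shINCA1 groups lay above both shCTRL groups. CXCL8 fell in shCTRL cells by a log2 change of -0.92 ± 0.19 (adjusted p = 0.00425), and its change in shINCA1 cells did not pass (-0.27 ± 0.15, 95% interval -0.59 to 0.05, adjusted p = 0.361). These responses were not shown to differ (0.66 ± 0.24, adjusted p = 0.270). CXCL8 was 5.48-fold higher in shINCA1 than in shCTRL cells untreated (log2 2.45 ± 0.16, adjusted p = 1.03e-07) and 8.62-fold higher with IFNγ (3.11 ± 0.17, adjusted p = 2.25e-08). Its window, with a κB-like and an AP-1 match, is printed above.

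CXCL2, a CXCR2 ligand of the same cluster on chromosome 4, showed no difference between the lines that passed the test. It stood at 0.961, 0.997 and 0.809 CPM in untreated and 0.602, 0.517 and 0.532 CPM in treated shCTRL cells. In shINCA1 cells it stood at 1.04, 0.732 and 0.816 CPM untreated and 0.593, 0.326 and 0.741 CPM treated. All treated shCTRL libraries were below all untreated ones, but the change did not pass the test over all genes (-0.74 ± 0.30, adjusted p = 0.128), nor did that in shINCA1 cells (-0.64 ± 0.30, adjusted p = 0.285). Between lines its log2 difference was -0.09 (95% interval -0.74 to 0.56) untreated and 0.02 (-0.66 to 0.69) with IFNγ, intervals that leave out the difference measured for CXCL8. These levels rest on 16 to 60 counts per library.

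CXCL1, whose upstream window is 71.2% identical to that of CXCL2, was listed at 0 in every library. The remaining close relative, CXCL3, stood at 0.980 ± 0.100 and 0.626 ± 0.051 CPM (SD, n = 3) in untreated and treated shCTRL cells and at 0.845 ± 0.191 and 0.824 ± 0.143 CPM in shINCA1 cells, and passed no test (adjusted p 0.103 to 0.975). CXCL1, CXCL2 and CXCL3 are close relatives whose reads the counting could assign to one another, so their single values are uncertain. The other genes of the cluster between CXCL8 and CXCL2 (CXCL6, PF4V1, PF4, PPBP and CXCL5) were also listed at 0 throughout. For a gene listed at 0, 3 counts per library were taken as the limit of counting error. They equal 0.0487 to 0.0561 CPM, depending on the group. The limit does not cover reads that the counting assigned elsewhere or left out.

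CXCL14, a chemokine made mainly by epithelia, showed the widest gap between the lines among the 7. Untreated shCTRL libraries held 0.696, 0.891 and 0.863 CPM and treated ones 0.519, 0.533 and 0.847 CPM. Untreated shINCA1 libraries held 26.7, 27.8 and 29.6 CPM and treated ones 26.9, 21.9 and 20.6 CPM. The lines were far apart in both conditions, and within each line treated and untreated libraries overlapped. The log2 difference between lines was 5.11 ± 0.16 untreated (adjusted p = 2.24e-10), a ratio of 34.4, and 5.18 ± 0.17 with IFNγ (adjusted p = 2.71e-10), a ratio of 36.2. The response to IFNγ did not pass the test in shCTRL (-0.35 ± 0.21, adjusted p = 0.320) or in shINCA1 cells (-0.28 ± 0.12, adjusted p = 0.242), and neither did the difference of responses (0.07, 95% interval -0.45 to 0.60, adjusted p = 0.965). Its neighbours on chromosome 5 include no other chemokine gene.

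KRT18 and KRT8, keratins of simple epithelia, were higher in the shINCA1 line, as CXCL14 was. The summed level of 5 epithelial markers was 93.3 to 96.4 CPM in untreated and 89.8 to 94.6 CPM in treated shCTRL cells, and 240 to 262 CPM and 267 to 269 CPM in untreated and treated shINCA1 cells. KRT18 made up most of it (92.0 CPM in untreated shCTRL and 247 CPM in untreated shINCA1 cells, log2 difference 1.43 ± 0.04). KRT8 stood at 2.90 and 5.14 CPM (0.83 ± 0.15, edgeR adjusted p = 5.89e-04). KRT19 stood at 0.286 and 0.211 CPM and did not pass (adjusted p = 0.689), and the defining markers EPCAM and CDH1 were at most 0.111 CPM in any group and at 0 in some. The part of these markers in the CXCL14 difference was not tested. Since each hairpin stands for 1 line, hairpin and line cannot be told apart in any difference between shINCA1 and shCTRL cells.

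CCL20, the CCR6 ligand, was at the edge of detection. Its libraries held 15, 3 and 9 counts in untreated and 0, 5 and 19 counts in treated shCTRL cells. They held 15, 15 and 12 counts in untreated and 7, 5 and 6 counts in treated shINCA1 cells. Low values in the table cluster at multiples of 3 (5790 values at 3 and 4120 at 6, against 3681 at 1, 2186 at 2 and 1317 at 4). No comparison passed the test, and the widest intervals of all 7 genes belonged to it, for example -2.88 to 0.85 for the log2 response in shINCA1 cells (adjusted p = 0.614), although those treated and untreated libraries did not overlap. Differences were not detectable at this depth.

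**Figure D3:**
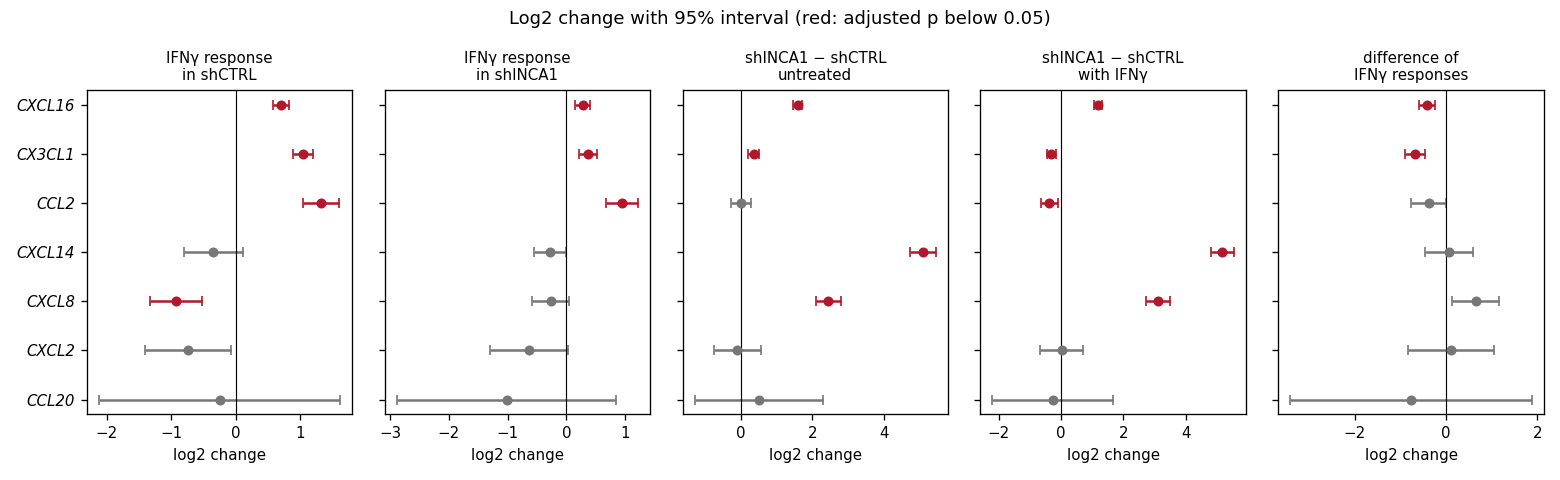
Log2 changes (x axes) of the 7 tested chemokine genes in the 5 comparisons, with 95% intervals from edgeR's quasi-likelihood fit; red points passed an adjusted p of 0.05. CXCL16, CX3CL1 and CCL2 lie right of 0 in both IFNγ panels, and CXCL14 and CXCL8 lie far right in both panels between lines.

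CCL5 and CXCL12 were listed at 0 in all 12 libraries, IFNγ-treated ones included. The neighbours of CCL2 on chromosome 17 (CCL7, CCL11 and CCL13) were at 0 throughout, and CCL8, the next of them, held at most 12 counts in a library. The neighbours of CX3CL1 on chromosome 16, CCL22 and CCL17, were at 0 as well. Among 31 further chemokine ligand genes, 25 were at 0 in all libraries and 2 were tested (CXCL3 and CCL26), of which none was called in any of the 5 comparisons. The median log2 change of these 2 was -0.73 for IFNγ in shCTRL and -0.18 in shINCA1, 0.25 between untreated and 0.80 between treated lines.

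Groups that did not overlap were counted apart from the test. For IFNγ in shCTRL cells the libraries were apart for 5 of the 7 genes (33.4% of all genes tested) and in shINCA1 cells for 4 of 7 (24.9%). Between lines they were apart for 4 of 7 untreated (62.8%) and 5 of 7 treated (66.5%). The shares between lines were close to those of all genes.

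Levels of different genes were set side by side per kilobase, with the length of the canonical transcript in GENCODE v44, which need not be the isoform made here. In untreated shCTRL cells CXCL16 had 7.22 ± 0.67 CPM per kb (SD, n = 3), CCL2 5.49 ± 0.90 and CX3CL1 4.58 ± 0.40. CXCL8 (0.901), CXCL2 (0.827), CXCL14 (0.484) and CCL20 (0.189) followed below 1 CPM per kb. CCL2 and CX3CL1 lay within their spreads there, as did CXCL8 and CXCL2 (SD 0.015 and 0.089). In treated shCTRL cells CCL2 came first with 13.8 ± 0.70 CPM per kb, ahead of CXCL16 (11.7 ± 0.22) and CX3CL1 (9.42 ± 0.32). In untreated shINCA1 cells the order was CXCL16 (21.9 ± 0.55), CXCL14 (16.6 ± 0.88), CX3CL1 (5.88 ± 0.22), CCL2 (5.52 ± 0.51) and CXCL8 (4.94 ± 0.37), in which neighbours among the last 3 lay within their spreads. After IFNγ it was CXCL16 (26.5 ± 0.58), CXCL14 (13.7 ± 1.97), CCL2 (10.6 ± 1.27), CX3CL1 (7.58 ± 0.55) and CXCL8 (4.10 ± 0.60). There CXCL14 and CCL2 lay within their spreads. CXCL14 thus went from the sixth place in untreated shCTRL cells to the second in untreated shINCA1 cells on this scale.

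Receptors of these ligands were scarce, and CXCR4, ACKR3 and CCR6 were lower in the shINCA1 line. CXCR1, CCR2 and CXCR6 were listed at 0 in all libraries, CX3CR1 held 3 counts in 1 library, and CXCR2 held 14 and 8 counts over the shCTRL groups and 0 in shINCA1 cells. Of 23 receptor genes 6 were tested. Untreated, 3 of the 6 were lower in shINCA1 cells, where 29.5% of all genes were, and none was higher, where 27.4% were (median log2 difference -0.54). With IFNγ the counts were the same, against 30.2% of all genes lower and 28.7% higher (median -0.63). The other 3, CCR10, ACKR1 and ACKR2, passed no test, and their means in untreated shINCA1 cells (0.177, 0.345 and 0.167 CPM) were above those in untreated shCTRL cells (0.136, 0.160 and 0.0607 CPM). IFNγ lowered 1 of the 6 in shCTRL cells (7.51% of all genes) and none in shINCA1 cells (2.95%).

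CXCR4 and ACKR3, the receptors of CXCL12, were among the 3. CXCR4 held 3.05, 2.57 and 2.79 CPM in untreated and 0.581, 0.408 and 0.548 CPM in treated shCTRL libraries. In shINCA1 libraries it held 0.348, 0.466 and 0.430 CPM untreated and 0.139, 0.326 and 0.167 CPM treated. It fell with IFNγ in shCTRL cells by a log2 change of -2.45 ± 0.28 (adjusted p = 5.41e-05) and did not pass in shINCA1 cells (-0.99 ± 0.32, adjusted p = 0.0890), and the responses were not shown to differ (1.46 ± 0.43, adjusted p = 0.148). Between untreated lines it was lower in shINCA1 cells by -2.75 ± 0.28 (adjusted p = 4.92e-06).

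ACKR3 held 7.34, 7.49 and 8.61 CPM in untreated and 4.73, 3.84 and 4.74 CPM in treated shCTRL libraries. It was at 0 in 2 of 3 untreated and 1 of 3 treated shINCA1 libraries, with 6 and 12 counts over these groups. It was lower in shINCA1 cells by a ratio of 241 untreated (95% exact interval of the pooled counts 110 to 658) and 58.9 with IFNγ (33.5 to 114). These intervals cover counting error only and take each estimated count as an independent event. Since low values cluster at multiples of 3, they may be too narrow. The edgeR adjusted p was 1.36e-07 untreated and 8.25e-07 with IFNγ. CCR6, the CCL20 receptor, was lower in shINCA1 cells too, by -1.50 ± 0.39 untreated (adjusted p = 0.00598) and -1.60 ± 0.39 with IFNγ (adjusted p = 0.00408).

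**Figure D4:**
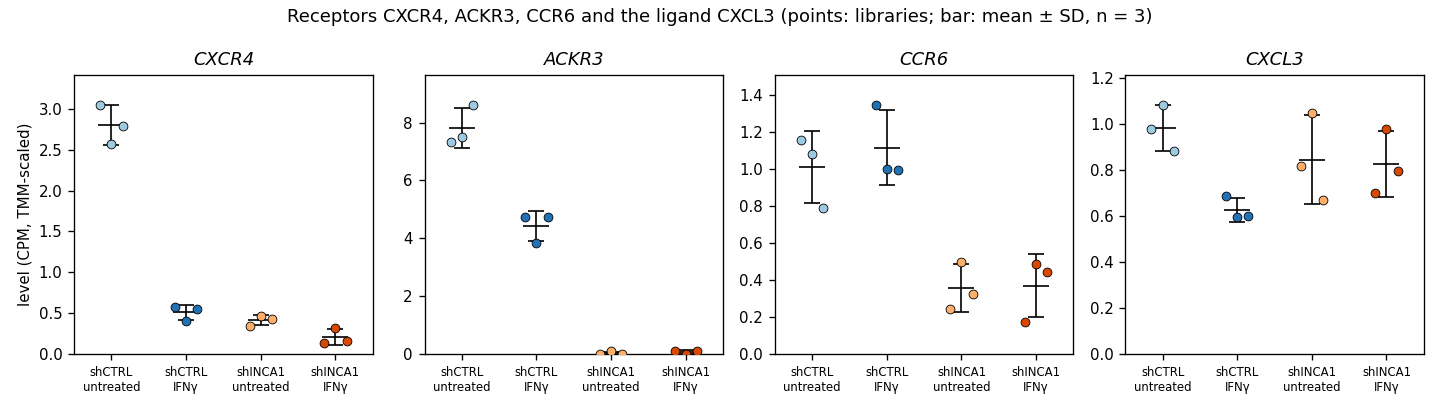
Levels in CPM (y axes, linear from 0) of the receptors CXCR4, ACKR3 and CCR6 and of the ligand CXCL3 in the 4 groups; points are libraries and bars are the mean ± SD of 3. These 3 receptors are lower in both shINCA1 groups than in untreated shCTRL cells, and CXCR4 also falls with IFNγ in shCTRL cells.

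ADAM17 and ADAM10 release the membrane-anchored chemokines from the cell. ADAM17 was at 93.0 ± 3.35 CPM (SD, n = 3) in untreated shCTRL and 81.8 ± 5.55 CPM in untreated shINCA1 cells, a log2 difference of -0.19 ± 0.05 (SE, adjusted p = 0.00552), and did not pass the test with IFNγ in either line (adjusted p = 0.880 and 0.927). RHBDF2, which encodes iRhom2, a partner ADAM17 needs to mature, was higher in shINCA1 cells by 1.06 ± 0.12 untreated (adjusted p = 1.27e-05) and by 0.89 ± 0.12 with IFNγ (adjusted p = 4.31e-05). ADAM10 spread widely between libraries (59.4 to 119 CPM) and was called between treated lines only (0.60 ± 0.19, adjusted p = 0.0184). Of 13 tested genes for shedding and clipping proteases and their regulators, 6 were higher and 3 lower in untreated shINCA1 cells (median 0.21), where 27.4% of all genes were higher and 29.5% lower. Among the higher ones were MMP3 (3.58 ± 0.16), which trims several chemokines, and MMP2 (0.87 ± 0.03), which can clip CXCL12. Means of the inhibitor genes TIMP1 (42.4 and 50.4 CPM in untreated shCTRL and shINCA1 cells) and TIMP2 (156 and 203 CPM) were higher too. Those of the protease genes MMP14 (55.6 and 43.0 CPM) and CTSL (96.0 and 64.9 CPM) were lower. With IFNγ 8 were higher and 4 lower (median 0.28), against 28.7% and 30.2% of all genes. IFNγ raised 1 and lowered 2 in shCTRL cells (9.72% and 7.51% of all genes) and raised none and lowered 2 in shINCA1 cells (6.13% and 2.95%), with the metalloproteinase inhibitor TIMP3 at -0.38 ± 0.07 and -0.44 ± 0.07.

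Among NF-κB genes called with IFNγ, more rose than fell in each line, while those called between lines went both ways. Their part in the CXCL8 difference was not tested. Of 23 tested subunits, regulators and target cytokines, 7 rose and 2 fell with IFNγ in shCTRL cells (median log2 change 0.06), where 9.72% of all genes rose and 7.51% fell. In shINCA1 cells 5 rose and 1 fell (median 0.11), where 6.13% of all genes rose and 2.95% fell. The kinase gene MAP3K14 rose by 0.57 ± 0.05 and 0.63 ± 0.05, and NFKB1, which encodes the p50 precursor, by 0.29 ± 0.05 and 0.26 ± 0.05. Between untreated lines 7 were higher and 9 lower in shINCA1 cells (median -0.05), against 27.4% and 29.5% of all genes. With IFNγ 8 were higher and 10 lower (median -0.12), against 28.7% and 30.2%. NFKBIA, which encodes an inhibitor that NF-κB itself induces, was higher in untreated shINCA1 cells by 0.43 ± 0.07 (adjusted p = 1.31e-04), while the subunit gene RELA was lower (-0.21 ± 0.03, adjusted p = 1.33e-04).

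The target cytokine genes LIF and IL6 went opposite ways in these comparisons. IL1A and CSF2, at low levels, had higher means in untreated shINCA1 cells, as LIF did. IL1A stood at 0.114 CPM in untreated shCTRL and 0.986 CPM in untreated shINCA1 cells, and CSF2 at 0.0331 and 0.560 CPM. LIF was higher in untreated shINCA1 cells by 1.36 ± 0.06 (adjusted p = 1.56e-09) and fell with IFNγ in shCTRL (-0.48 ± 0.06, adjusted p = 6.24e-05) and in shINCA1 cells (-0.23 ± 0.05, adjusted p = 0.0197). IL6 was lower in untreated shINCA1 cells by -1.02 ± 0.16 (adjusted p = 1.45e-04) and rose with IFNγ by 1.29 ± 0.15 in shCTRL (adjusted p = 5.34e-05) and by 1.20 ± 0.16 in shINCA1 cells (adjusted p = 2.95e-04). None of the 23 genes was called in the difference of responses, where 1.71% of all genes were.

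Heparan sulfate chains hold secreted chemokines at the cell surface. Of 18 tested genes for their carriers and enzymes, 8 were higher and 4 lower in untreated shINCA1 cells (median 0.08), that is 12 called where 56.9% of all genes were. With IFNγ 9 were higher and 6 lower (median 0.13), that is 15 called where 58.9% of all genes were. Untreated, the carrier gene GPC4 was higher by 1.50 ± 0.03 (edgeR adjusted p = 7.61e-12). SULF1, a sulfatase that removes sulfate groups from the chains outside the cell, was higher by 2.65 ± 0.10 (adjusted p = 6.35e-10). HSPG2, the perlecan gene, stood at 0.74 ± 0.06 (adjusted p = 4.86e-07) and HPSE, the heparanase gene, at 0.78 ± 0.06 (adjusted p = 3.45e-07). The more abundant sulfatase gene SULF2 went the other way, from 160 CPM in untreated shCTRL to 120 CPM in untreated shINCA1 cells. SULF1 stood at 2.42 and 15.2 CPM there. IFNγ raised 2 and lowered 4 in shCTRL cells (9.72% and 7.51% of all genes) and raised 1 and lowered 2 in shINCA1 cells (6.13% and 2.95%). The syndecan gene SDC3 was lowered in both (-0.36 ± 0.04 and -0.24 ± 0.04), and the sulfotransferase gene NDST2 was raised in both (0.50 ± 0.07 and 0.35 ± 0.07).

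The genes most like each chemokine were sought by the root mean square distance of centred log2 CPM over the 12 libraries, among 12973 other genes of at least 1 CPM on average. Nearest to CXCL16 were CCND1 (0.11) and PLAUR (0.12), which encode cyclin D1 and the urokinase receptor. Nearest to CX3CL1 were SNTB2 and MAN1A1 (both 0.13), and nearest to CCL2 were SLC25A28 (0.13) and DRAM1 (0.15). CXCL8 was farther from its nearest genes, OVOL2 (0.23) and GPRC5A (0.25), and CXCL14 farther still from COL11A1 (0.34) and WNT7B (0.35). CXCL2 and CCL20 were below 1 CPM on average and were not compared. SNTB2 repeated the change of order seen for CX3CL1, at 39.2 and 47.9 CPM in untreated and 68.0 and 59.6 CPM in treated shCTRL and shINCA1 cells, as a gene chosen for its likeness.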

How the data were processed

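Poly(A) RNA libraries were made with a stranded messenger RNA kit from 12 samples, 3 in each of 4 groups taken from the titles. The authors deposited 1 table of expected counts (estimated counts per gene symbol, whole numbers, not scaled between samples). FastQC, Trimmomatic, HISAT2, StringTie and build hg19 are named per the submitters' processing notes. Versions, the annotation, the counting step and its use of strand were not given in the sources used here. Reads of overlapping genes therefore cannot be told apart. All columns were mapped.

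The fit used edgeR 4.0.16 under R 4.3.3: filterByExpr (15769 of 27685 entries), TMM factors, and the quasi-likelihood test with all 12 samples in 1 fit and no covariate. All tests are two-sided. Benjamini-Hochberg adjusted p-values span every gene tested, with a threshold of 0.05. SE is the log2 change divided by the root of F. On simulated counts for IFNγ in shCTRL (15421 genes), 41 of 50 genes changed 1.5-fold and 50 of 50 changed 2-fold were recovered. The changed genes were at 1 CPM or more on average, and all genes were given the same spread. Recovery at lower levels, such as those of CXCL2 and CCL20, was not tested. Alternatives used DESeq2 1.42.0 and limma 3.58.1.

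Members and gene lists were chosen with earlier results of these data known. The text names all 10 members, up to 4 genes per list and comparison by p, members' receptors and proteases, and the 2 nearest genes of members at 1 CPM or more.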

Additional observations from a re-analysis of the deposited data

Results flagged for a closer look

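The log2 response to IFNγ differed between the lines for 2 of the 7 tested chemokines by a test of the difference itself. For CX3CL1 the response in shINCA1 minus that in shCTRL cells was -0.67 on the log2 scale (edgeR adjusted p = 0.00461, and 1.08e-07 to 0.0141 over 7 other ways of fitting). All 3 treated libraries were above all 3 untreated ones in each line. For CXCL16 it was -0.42 (edgeR adjusted p = 0.0206, and 2.21e-05 to 0.0323 over 7 other ways of fitting), again with all 3 treated libraries above the untreated ones in each line. Leaving out 1 library at a time, the CXCL16 call was lost in 5 of 12 cases (adjusted p 0.0136 to 0.0709) and the CX3CL1 call in none (0.00267 to 0.0182).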

How the results depend on the processing

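Of 681 values of single chemokines under other settings, 648 kept their direction and their side of the threshold, 8 were no longer called and 25 changed sign, none of these called. With upper-quartile factors 1970 genes were lowered by IFNγ in shCTRL (1184 with TMM) and 733 in shINCA1 cells (465 with TMM), and the DESeq2 Wald test gave 718 in the latter. In the difference of responses DESeq2 called 192 genes higher and 317 lower (97 and 173 with edgeR). The cause was not tested. Leaving out 1 library gave 57 to 92 higher and 95 to 154 lower genes there, 281 to 481 lowered by IFNγ in shINCA1 cells, and 1 to 2 chemokines lower in the difference of responses and 1 to 2 lower in shINCA1 cells with IFNγ. The lost calls are those of CXCL16 and CCL2 given with their libraries above. Sign changes touched values near 0 or at low counts: with limma-voom CXCL2 between treated lines (-0.030), CCL20 between treated lines (0.74) and CCL20 in the difference of responses (0.15). With 1 library left out, CCL20 ranged from -1.86 to 0.27 for IFNγ in shCTRL, from -0.79 to 1.35 between treated lines and from -1.29 to 0.84 in the difference. CCL2 between untreated lines ranged from -0.12 to 0.11, CXCL14 in the difference from -0.050 to 0.35, and CXCL2 from -0.25 to 0.28 between treated lines, from -0.26 to 0.019 between untreated lines and from -0.17 to 0.38 in the difference. Deviations of same-numbered samples were only weakly correlated (-0.036 to 0.067 over 18 pairs), though 8 of 12 samples were closest to their own number. The labels do not say whether the numbers mark a pairing. With the replicate number as a block CXCL2 between treated lines was -0.012 and no chemokine call changed. With the block 149 genes were lower in the difference of responses. With a filter of 5 CPM in 3 samples CXCL2 and CCL20 gave no value. Few counts limit CCL20 and CXCL2. In shCTRL libraries CXCL8 (71 to 88 counts untreated, 33 to 61 treated) and CXCL14 (42 to 48 and 25 to 51) rested on few counts too. The fall of CXCL8 with IFNγ in shCTRL cells had an adjusted p of 2.06e-04 to 0.0490 over 8 other ways of fitting.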
